A study of Oryctolagus cuniculus with 20 samples.

Results

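RPL21 (ENSOCUG00000027750), RPSA (ENSOCUG00000022661) and RPS7 (ENSOCUG00000016072) are 3 annotated rabbit loci that carry the names of cytosolic ribosomal protein genes. They were selected on their fold changes after pergolide and after dexfenfluramine against non-treated valves, so their values in those comparisons are given as a description without a test. They are 3 of the 23669 genes in the counts, and each of them was among the 8683 genes tested. Each name belonged to a single locus in the study's list of differentially expressed genes (DEGs), from which all symbols were taken. Genomic position, exon structure and sequence are not given in the sources used here, and whether a locus is the intron-containing gene or a processed copy was not tested.

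Ribosomal proteins assemble with ribosomal RNA into the large and small subunits of the ribosome, and their mRNAs share a terminal oligopyrimidine (TOP) motif that couples their translation to growth signals. RPL21 is a protein of the large subunit, RPSA is a small subunit protein also known as a laminin receptor, and RPS7 is a small subunit protein that takes part in subunit assembly and can bind MDM2. Mammalian genomes hold many intronless processed copies of such genes, and reads from near-identical copies cannot be assigned with certainty, so the counts of each ribosomal protein locus are uncertain to that extent.

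The tricuspid valves came from female New Zealand white rabbits, 8 weeks old at the start, that drank water with or without a treatment for 16 weeks. Non-treated rabbits received water alone, and the others received serotonin at 80 mg/kg/day, pergolide, an ergot-derived dopamine agonist, at 0.5 mg/kg/day, or dexfenfluramine, an appetite suppressant that releases serotonin, at 20 mg/kg/day. The dose of dexfenfluramine is that of the sample labels, and a passage of the study's text gives a lower one. Each group had 5 rabbits, with 1 library of total RNA per valve after depletion of ribosomal RNA.

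Reads counted on genes numbered 3247091 to 5921025 per valve, and the median was 4573978 in non-treated, 3890579 in serotonin, 4794216 in pergolide and 4294294 in dexfenfluramine valves. A single gene without a symbol held 40.7% ± 7.39 (SD, n = 5) of the reads of non-treated valves and 29.1% ± 5.65 (SD, n = 5) of those of dexfenfluramine valves, with serotonin (35.9% ± 4.07, n = 5) and pergolide (32.9% ± 2.13, n = 5) between them. Levels are therefore given as counts relative to the library total after TMM normalization (CPM), which sets libraries to a common scale on the genes in the middle of the range. The TMM factors ran from 0.584 to 1.25 in non-treated, 0.660 to 1.11 in serotonin, 0.990 to 1.26 in pergolide and 1.08 to 1.71 in dexfenfluramine valves. The size of a fold change in CPM thus depends on a scaling that differed between groups. Valve markers were present, with vimentin (VIM) at 2787 CPM ± 686 (SD, n = 5) in non-treated valves. Cardiomyocyte markers were abundant as well, with titin (TTN) at 74603 CPM ± 27108 (SD, n = 5). None of the 5 symbols of macrophages and leukocytes and the 4 of erythroid cells that were looked up was in the DEG list, so these cells were not analysed here.

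On principal components of the 500 most variable genes, the valves furthest from the centre of their group were dexfenfluramine replicate 3, at a distance of 24.0 on the first and second component, non-treated replicate 3 at 16.2 and non-treated replicate 4 at 14.4. All others were at 8.98 or less. Dexfenfluramine replicate 3 also had the lowest total count of the 20 valves. The fitted values of the 3 loci, the ribosomal protein counts and the cell markers are given also without dexfenfluramine replicate 3 and non-treated replicate 3, the 2 furthest valves, while other levels, ratios and correlations include them.

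RPL21, of the large subunit, was counted in non-treated valves with 17, 49, 75, 41 and 41 reads in replicates 1 to 5. In serotonin valves it had 79, 47, 32, 42 and 67 reads. In pergolide valves it had 3, 3, 0, 3 and 7 reads, and in dexfenfluramine valves 2, 2, 6, 8 and 3. Every drug-treated valve thus lay below every non-treated and serotonin valve, while non-treated and serotonin valves overlapped and so did the valves of both drugs. With 3 reads taken as the floor of detection, 4 of 5 pergolide and 3 of 5 dexfenfluramine valves were at or under it. Differences among the drug-treated valves therefore rest on few reads, and they were not tested.

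The mean level of RPL21 was 10.8 CPM ± 3.04 (SD, n = 5) in non-treated and 14.5 CPM ± 4.21 (SD, n = 5) in serotonin valves. It was 0.571 CPM ± 0.443 (SD, n = 5) after pergolide and 0.764 CPM ± 0.498 (SD, n = 5) after dexfenfluramine. Summed over the 5 valves of a group, 223 reads in non-treated valves stood against 16 after pergolide and 21 after dexfenfluramine. Relative to the normalized library totals, the level was 19.0 times lower with pergolide (95% counting interval 11.4 to 33.8) and 14.7 times lower with dexfenfluramine (9.40 to 24.3). The fitted log2 fold changes were -4.16 (standard error 0.40) and -3.80 (standard error 0.38), the third and the second lowest of all 8683 tested genes. Without the 2 furthest valves they were -4.08 and -3.87.

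RPSA, of the small subunit, had 34, 39, 66, 35 and 65 reads in non-treated valves. It had 34, 44, 41, 41 and 30 reads in serotonin valves, 156, 200, 149, 223 and 193 in pergolide valves and 166, 225, 259, 175 and 272 in dexfenfluramine valves. The lowest drug-treated valve held more than 2 times the reads of the highest valve of the other groups, and RPSA alone of the 3 loci was far above the floor in all 20 valves. Mean levels were 11.9 CPM ± 1.86 (SD, n = 5) in non-treated, 10.6 CPM ± 2.50 (SD, n = 5) in serotonin, 33.7 CPM ± 3.57 (SD, n = 5) in pergolide and 39.4 CPM ± 5.68 (SD, n = 5) in dexfenfluramine valves. From the summed counts RPSA was 2.83 times higher with pergolide (95% counting interval 2.45 to 3.27) and 3.31 times higher with dexfenfluramine (2.87 to 3.82). The fitted log2 fold changes of 1.50 (standard error 0.15) and 1.72 (standard error 0.15) ranked 53 and 23 from the highest, and without the 2 furthest valves they were 1.48 and 1.63.

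RPS7, also of the small subunit, had 4, 3, 4, 6 and 4 reads in non-treated valves and 8, 6, 6, 9 and 6 in serotonin valves. It had 19, 17, 24, 23 and 29 reads in pergolide valves and 16, 22, 28, 28 and 23 in dexfenfluramine valves. Here the non-treated valves were the ones near the floor, 1 of 5 being at 3 reads, and every drug-treated valve lay above every other valve. Mean levels were 1.13 CPM ± 0.454 (SD, n = 5) in non-treated, 1.92 CPM ± 0.287 (SD, n = 5) in serotonin, 4.15 CPM ± 0.956 (SD, n = 5) in pergolide and 4.23 CPM ± 0.826 (SD, n = 5) in dexfenfluramine valves. From the summed counts, 21 in non-treated valves against 112 and 117, RPS7 was 3.91 times higher with pergolide (95% counting interval 2.44 to 6.57) and 4.02 times higher with dexfenfluramine (2.51 to 6.73). The fitted log2 fold changes were 1.92 (standard error 0.27) and 1.96 (standard error 0.27), which ranked 25 and 12 from the highest, and they were 1.75 and 1.71 without the 2 furthest valves.

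**Figure D1:**
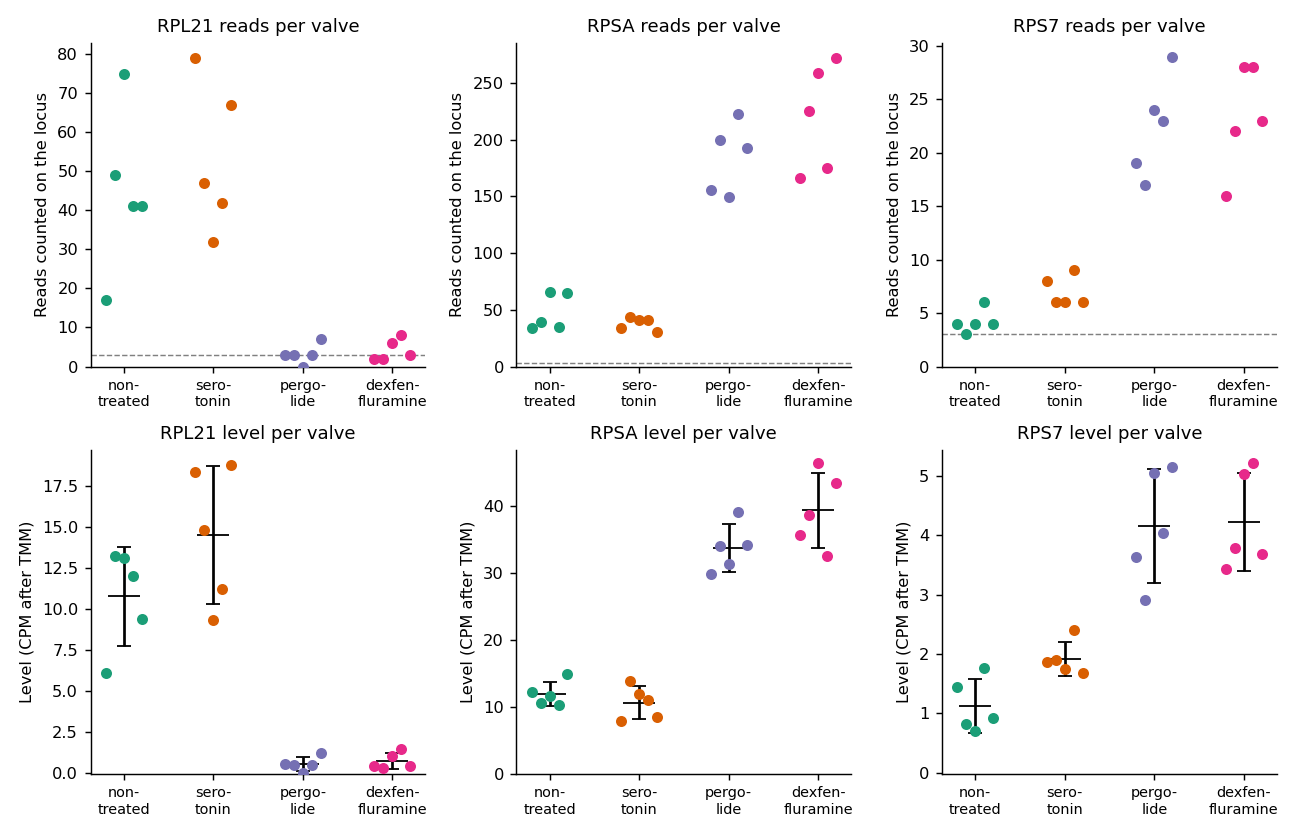
Reads counted on RPL21, RPSA and RPS7 in each valve (upper row, with a dashed line at 3 reads) and their level in CPM after TMM normalization (lower row, with bars for mean ± SD of 5 valves). RPL21 had 0 to 8 reads in the 10 drug-treated valves, and RPSA and RPS7 were higher there than in each non-treated and serotonin valve.

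The plot of reads and levels by valve shows the same separation for each locus, with both drug groups on one side and the non-treated and serotonin groups on the other. All 3 loci were without overlap between pergolide and non-treated valves, as were 16.3% of all tested genes, and between dexfenfluramine and non-treated valves, as were 17.0%. By the test, which is a different measure, 24.9% and 28.9% of all tested genes passed in these comparisons. Both comparisons share the 5 non-treated valves, and the separation is what the loci were selected on. Against serotonin valves, RPL21 was 24.9 times lower with pergolide (95% counting interval 15.1 to 44.2) and 19.3 times lower with dexfenfluramine (12.4 to 31.7). The drug-treated valves entered the selection, and whether serotonin values played a part in it is not known. RPSA was 3.25 times (2.77 to 3.81) and 3.80 times (3.25 to 4.45) higher than in serotonin valves, and RPS7 was 2.14 times (1.45 to 3.23) and 2.20 times (1.50 to 3.31) higher. These ratios were not tested.

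The filter on low counts asked for at least 2.22 CPM in 5 valves, on the library totals before TMM normalization. RPL21 reached it in all 5 non-treated and all 5 serotonin valves and in 0 drug-treated valves, and RPS7 in 0 non-treated and serotonin valves and in all 10 drug-treated ones. Both thus passed through the groups where they were high and had to differ, whereas RPSA reached the minimum in all 20 valves. In non-treated, serotonin, pergolide and dexfenfluramine valves, counting error alone gives RPL21 an SD of 1.65, 1.98, 0.280 and 0.358 CPM, below the SD found in each group. For RPSA it gives 1.76, 1.71, 2.49 and 2.67 CPM, close to the SD found in non-treated valves and below it in the others. For RPS7 it gives 0.544, 0.727, 0.873 and 0.874 CPM, above the SD found in all groups but pergolide.

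The 3 loci were selected on the drug comparisons with earlier results of these data known, and whether serotonin values played a part is not known. In the comparison of serotonin with non-treated valves, the 5 non-treated valves did enter the selection. A locus chosen as low in non-treated valves, as RPS7 was, may therefore be too high in its fold change with serotonin, and one chosen as high there, as RPL21 was, too low. None of them passed the threshold with edgeR's quasi-likelihood test, with 1.19% of all tested genes called in that comparison. Those 103 genes became 0 without non-treated replicate 2, non-treated replicate 5 or serotonin replicate 1, 3 without non-treated replicate 4, 4, 21 and 50 without serotonin replicates 2, 4 and 5, and 261 without non-treated replicate 3. RPS7 had the largest value, a log2 fold change of 0.83 (standard error 0.31, 95% interval 0.19 to 1.47, edgeR adjusted p = 0.239), and its serotonin valves overlapped with the non-treated ones, 1.68 to 2.41 CPM against 0.701 to 1.76 CPM. RPL21 had a log2 fold change of 0.41 (standard error 0.28, 95% interval -0.17 to 0.99, edgeR adjusted p = 0.479) and RPSA one of -0.18 (standard error 0.16, 95% interval -0.51 to 0.16, edgeR adjusted p = 0.620). The same 0 of 3 were called with DESeq2 (adjusted p between 0.327 and 0.645). Without the 2 furthest valves the values were 0.66 for RPS7, 0.50 for RPL21 and -0.20 for RPSA, with edgeR adjusted p-values from 0.321 to 0.537.

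The drugs were also compared with each other. Both groups entered the selection of the 3 loci, so their differences are given without a test. Over all genes edgeR called 0 of 8683 genes (0%), although 614 had an unadjusted p under 0.05, and DESeq2 called 4. RPSA differed by 0.22 on the log2 scale between dexfenfluramine and pergolide (standard error 0.13, 95% interval -0.05 to 0.50). RPS7 differed by 0.03 (standard error 0.21, 95% interval -0.40 to 0.46) and RPL21 by 0.36 (standard error 0.57, 95% interval -0.82 to 1.54). The interval of RPL21 is wide because 16 and 21 reads stand behind the groups, and it does not show that the drugs act alike. Without the 2 furthest valves, the differences were 0.16 for RPSA, -0.04 for RPS7 and 0.20 for RPL21. Ordered by mean level, RPL21 ran from pergolide, dexfenfluramine and non-treated to serotonin, RPSA from serotonin, non-treated and pergolide to dexfenfluramine, and RPS7 from non-treated, serotonin and pergolide to dexfenfluramine. In each order the neighbours on either side of the gap between the drug groups and the others were the only ones without overlap.

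**Figure D2:**
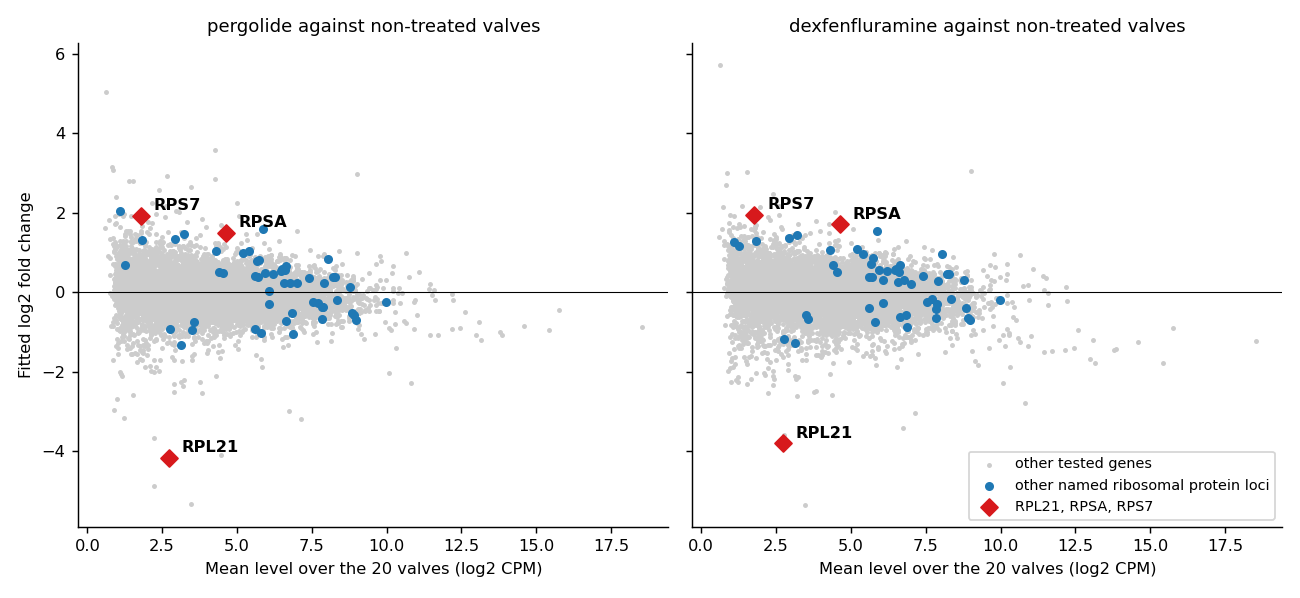
Fitted log2 fold change of each of 8683 tested genes with pergolide (left) and dexfenfluramine (right) against its mean level over 20 valves in log2 CPM. RPL21 lies among the lowest values, RPSA and RPS7 lie at the upper edge, and the 51 other named ribosomal protein loci are spread on both sides of 0.

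As the plot of fold change against level shows, changes as large as that of RPL21 were few. Only 19 tested genes had a log2 fold change under -2 with both drugs, RPL21 among them, and 26 had one over 1.5 with both drugs. Complete separation was more common, with 417 tested genes lower and 236 higher in all 10 drug-treated valves than in all 10 others.

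Genes with the most similar pattern were sought by correlation of log2 CPM over the 20 valves, which share library and depth with the loci and fall into drug-treated and other valves. For RPL21 the closest were ENSOCUG00000023154 (r = 0.969), HNRNPDL (0.956), BCLAF1 (0.955) and TAF3 (0.955), with a further locus without a symbol. HNRNPDL, an RNA-binding protein, changed by -0.76 with pergolide and -0.72 with dexfenfluramine on the log2 scale, and BCLAF1, a nuclear protein linked to transcription and RNA processing, by -0.65 and -0.61. TAF3, a subunit of the TFIID complex, changed by -0.68 and -0.70. These changes were far smaller than that of RPL21, while ENSOCUG00000023154 changed by -4.10 and -3.61 on the log2 scale and held 8 to 303 reads per valve. The further locus, ENSOCUG00000026042 (r = 0.955), changed by -4.11 and -3.58 and held 2 to 112 reads per valve.

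For RPSA the closest were SIDT2 (r = 0.965), ENSOCUG00000018808 (0.963), ANAPC5 (0.945) and TRPC4AP (0.942). SIDT2, a lysosomal membrane protein, changed by 0.49 with pergolide and 0.63 with dexfenfluramine on the log2 scale, and ANAPC5, a subunit of the anaphase-promoting complex, by 0.57 and 0.67. For RPS7 they were HAO2 (r = 0.941), a peroxisomal hydroxyacid oxidase, BCO1 (0.892), a carotenoid-cleaving enzyme, and DPY19L1 (0.891), and ENSOCUG00000018808 was again among them (0.874). The unnamed locus changed by 2.98 and 3.05 on the log2 scale and went from 284 to 525 reads in non-treated and serotonin valves to 3644 to 5952 in drug-treated valves.

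For the 3 loci themselves, much of the correlation was the difference between groups. RPL21 and RPSA had r = -0.943 over the 20 valves, RPL21 and RPS7 -0.818, and RPSA and RPS7 0.823. Once the mean of each group was subtracted, these were -0.248, 0.017 and -0.040, far weaker than over all valves. Among the 3 closest genes of each locus after the same subtraction, only C8A, a complement component, had a symbol, with r = 0.719 to RPL21 and 4 to 19 reads per valve.

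The other ribosomal protein loci were taken from a list of 76 symbols, which gave 51 named and tested loci. Since symbols were given by the study's DEG list, these loci were chosen on the same samples. Their counts of called loci are raised by that choice and are not independent evidence of a direction. With pergolide 26 rose, 15 fell and 10 did not pass the test, and with dexfenfluramine 26 rose, 12 fell and 13 did not pass. Of all tested genes, 12.1% rose and 12.7% fell with pergolide, and 13.5% rose and 15.4% fell with dexfenfluramine. With serotonin 8 loci rose, 0 fell and 43 did not pass (edgeR, with DESeq2 13 rose and 1 fell), where 1.04% of all tested genes rose and 0.150% fell. Across the alternatives the rises with serotonin ran from 0, with only the groups compared, to 13, and the replicate block gave 1. The median log2 fold changes of the 51 loci for serotonin, pergolide and dexfenfluramine were 0.25, 0.25 and 0.30, beside 0.01, 0.02 and 0.03 over all tested genes. In a limma-voom fit with svaseq surrogate variables, 6 loci fell with pergolide and 4 with dexfenfluramine. Over all tested genes that fit called 1155 with pergolide and 984 with dexfenfluramine, against 2158 and 2507 with edgeR. Of 29 loci of the large subunit, 15 rose and 7 fell with pergolide and 16 rose and 5 fell with dexfenfluramine, and of 22 loci of the small subunit, 11 rose and 8 fell and then 10 rose and 7 fell.

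**Figure D3:**
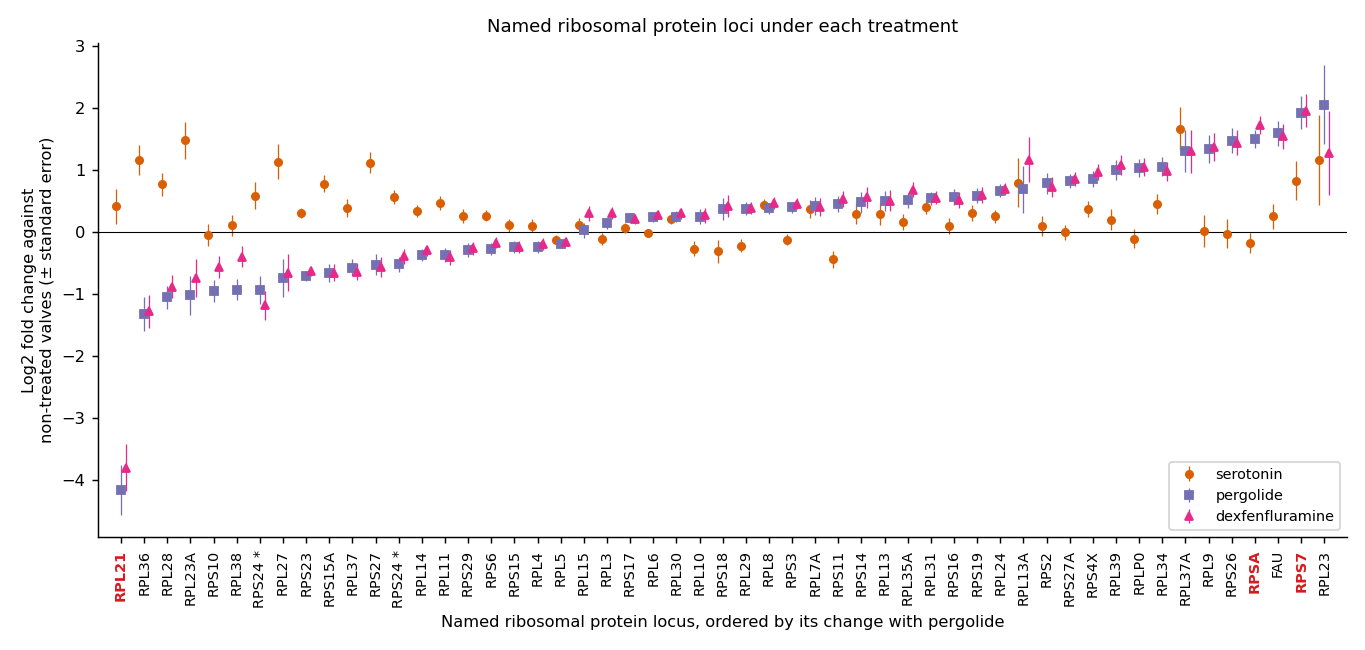
Log2 fold change against non-treated valves, with standard error, of RPL21, RPSA, RPS7 (red names) and 50 other named ribosomal protein loci with serotonin, pergolide and dexfenfluramine, ordered by the value with pergolide. An asterisk marks 2 loci that both carry the name RPS24. RPL21 is at -4.16 with pergolide, and the next lowest locus is RPL36 at -1.32.

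The plot of the ribosomal protein loci shows values for both drugs side by side over the whole order, with RPL21 far below the rest and RPSA and RPS7 near the upper end. Among the loci that rose with pergolide, RPL23 changed by 2.05 on the log2 scale (standard error 0.64, edgeR adjusted p = 0.022) at a median of 6.5 reads. FAU, whose product is a ubiquitin-like protein fused to RPS30, rose by 1.59 (standard error 0.20, edgeR adjusted p = 1.4e-05), from 28.9 CPM ± 11.3 to 85.5 CPM ± 12.4 (SD, n = 5). RPS26 rose by 1.47 (standard error 0.21) and RPL9 by 1.34 (standard error 0.23), each with all drug-treated valves above the others. The largest falls with pergolide after RPL21 were those of RPL36 at -1.32 (standard error 0.27, edgeR adjusted p = 0.0013), RPL28 at -1.05 (0.19), RPL23A at -1.02 (0.31) and RPS10 at -0.95 (0.18).

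With dexfenfluramine the largest rises were again found at FAU, 1.54 (standard error 0.20, edgeR adjusted p = 1.7e-05), RPS26, 1.44 (0.21), RPL9, 1.36 (0.23), and also at RPL37A, 1.30 (0.34). Among the largest falls were RPL36 at -1.28 (standard error 0.27), the RPS24 locus ENSOCUG00000025551 at -1.18 (0.23) and RPL28 at -0.88 (0.18). RPL36 went from 8.67 CPM ± 1.64 in non-treated to 19.3 CPM ± 6.26 in serotonin, 3.44 CPM ± 1.10 in pergolide and 3.55 CPM ± 0.953 in dexfenfluramine valves (SD, n = 5). Its level was thus above that of non-treated valves with serotonin and below it with both drugs.

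With serotonin the largest rises were RPL37A at 1.66 (standard error 0.35, edgeR adjusted p = 0.030), RPL23A at 1.47 (0.30), RPL36 at 1.16 (0.24) and RPS27 at 1.12 (0.17). Of these, RPL23A, RPL36 and RPS27 fell with pergolide. RPL11, a large subunit protein gene that was also chosen for qPCR, had log2 fold changes of 0.47 with serotonin (standard error 0.12, edgeR adjusted p = 0.051), -0.37 with pergolide (0.12, 0.026) and -0.41 with dexfenfluramine (0.12, 0.013). The study reported a rise of RPL11 with serotonin by its own RNA-seq analysis and by qPCR. The number of ribosomal protein loci that rose with serotonin depended on single valves: it was 0 without non-treated replicate 2, non-treated replicate 5 or serotonin replicate 1, 1 without non-treated replicate 4 or serotonin replicate 2, 4 without serotonin replicate 4 and 13 without non-treated replicate 1. Without the 2 furthest valves it was 11, and the counts were then 22 rises and 16 falls with pergolide and 21 rises and 14 falls with dexfenfluramine. In that setting 481 of all tested genes were called with serotonin, against 103 with all valves.

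Loci with few reads had larger fold changes. The 12 other ribosomal protein loci with a median under 100 reads had a median absolute log2 fold change of 0.995 with pergolide and 1.17 with dexfenfluramine, and the 39 loci with 100 reads or more had 0.481 and 0.471. RPL21 and RPS7 each had a median of 12.5 reads over the 20 valves and RPSA had 107.5. The part of the low counts in these changes was not tested.

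**Figure D4:**
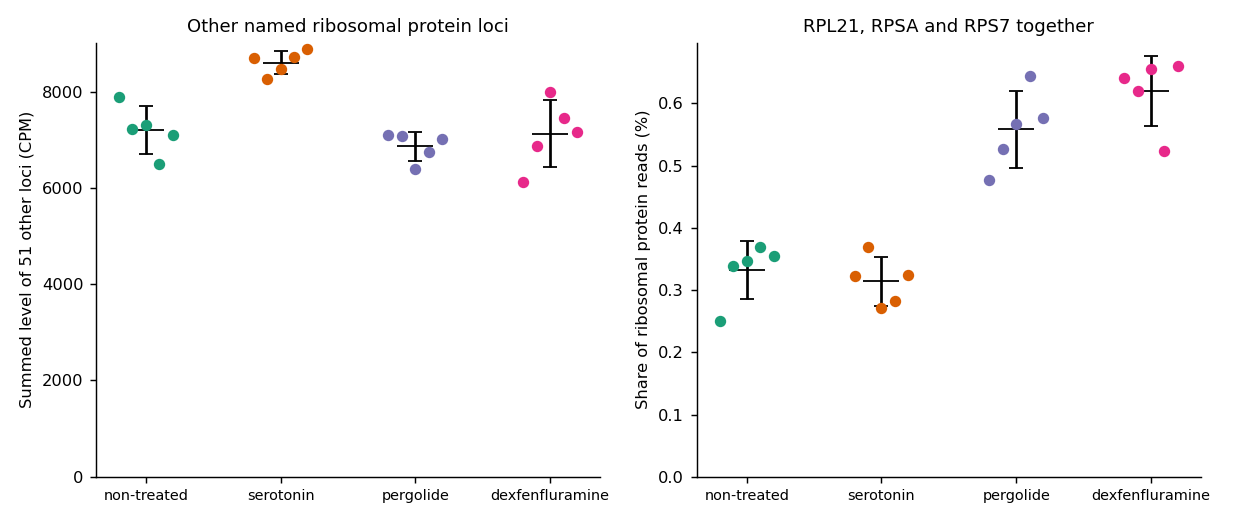
Summed level of the 51 other named ribosomal protein loci in CPM (left) and reads of RPL21, RPSA and RPS7 together as a share of the reads of all named ribosomal protein loci (right), by valve, with bars for mean ± SD of 5 valves. The share of the 3 loci was 0.250% to 0.370% in non-treated and serotonin valves and 0.477% to 0.661% in drug-treated valves.

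Although single loci moved in both directions, their summed level in CPM moved less. The 51 loci together stood at 7203 CPM ± 503 (SD, n = 5) in non-treated, 8603 CPM ± 237 (SD, n = 5) in serotonin, 6865 CPM ± 304 (SD, n = 5) in pergolide and 7122 CPM ± 693 (SD, n = 5) in dexfenfluramine valves. All serotonin valves, at 8267 to 8877 CPM, lay above all non-treated valves, at 6489 to 7896 CPM, while both drug groups overlapped with the non-treated valves. Before TMM normalization, the 51 loci held 0.593% ± 0.196 (SD, n = 5) of all reads in non-treated and 0.773% ± 0.165 in serotonin valves. This share was 0.766% ± 0.103 in pergolide and 0.941% ± 0.256 in dexfenfluramine valves. By that share, unlike by summed CPM, both drug groups had a higher mean than non-treated valves. As the plot of the summed levels shows, RPL21, RPSA and RPS7 were a small part of these reads. Of the reads of all named ribosomal protein loci, the 3 included, they came to 0.332% ± 0.0472 in non-treated, 0.314% ± 0.0391 in serotonin, 0.558% ± 0.0617 in pergolide and 0.620% ± 0.0562 in dexfenfluramine valves (SD, n = 5). RPL21 alone went from 0.151% ± 0.0467 in non-treated valves to 0.00812% ± 0.00626 after pergolide and 0.0104% ± 0.00620 after dexfenfluramine (SD, n = 5), and RPSA from 0.165% ± 0.0254 to 0.490% ± 0.0565 and 0.551% ± 0.0671 (SD, n = 5).

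Of other genes with TOP mRNAs, 21 symbols gave 12 named and tested loci. Their symbols came from the study's DEG list, so the counts of called loci are raised by that choice and are not evidence of enrichment. With pergolide 5 rose and 5 fell, where 12.1% of all tested genes rose and 12.7% fell, with dexfenfluramine 6 rose and 5 fell, where 13.5% rose and 15.4% fell, and with serotonin 2 rose, where 1.04% rose. TPT1, the translationally controlled tumour protein, changed by -0.76 with pergolide and -0.67 with dexfenfluramine (standard error 0.11 for both, edgeR adjusted p = 5.6e-05 and 1.7e-04), and NAP1L1, a histone chaperone, by -0.63 and -0.64 (standard error 0.10 for both). The most abundant of them, the elongation factor EEF1A1, rose by 0.51 and 0.59 (standard error 0.11 for both).

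Of the factors that assemble the ribosome, 65 symbols gave 24 named and tested loci. With pergolide 4 rose and 16 fell, where 12.1% of all tested genes rose and 12.7% fell. With dexfenfluramine 3 rose and 18 fell, where 13.5% rose and 15.4% fell, and with serotonin 1 rose, where 1.04% rose. Both lists together had 3 called genes with serotonin, 1 without non-treated replicate 4 and 0 without non-treated replicate 2, non-treated replicate 5, serotonin replicate 1 or serotonin replicate 2. Across the alternatives, 0 to 5 were called with serotonin. For each drug, limma-voom with svaseq surrogate variables called 15 genes of both lists. Over all tested genes it called 1155 with pergolide and 984 with dexfenfluramine, against 2158 and 2507 with edgeR. ZNHIT6, which acts in the assembly of snoRNA-protein particles, changed by -1.16 with pergolide (standard error 0.16, edgeR adjusted p = 3.6e-05) and -1.03 with dexfenfluramine (standard error 0.16, edgeR adjusted p = 8.7e-05). RIOK1, a kinase of small subunit maturation, changed by -0.79 and -0.74 (standard error 0.13 for both), and WDR36, of the small subunit processome, rose by 0.57 and 0.65 (standard error 0.10 for both). Nucleolin (NCL), the most abundant of the list, stood at 366 CPM ± 60.9 in non-treated, 500.4 CPM ± 89.8 in serotonin, 245 CPM ± 11.1 in pergolide and 235 CPM ± 15.4 in dexfenfluramine valves (SD, n = 5). These loci too were named by the study's DEG list, so the counts of called loci are raised by that choice and are not independent evidence of a direction.

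Markers of other cells of the valve were looked at as well. In bulk tissue, fewer cells of a type and less RNA per cell cannot be told apart. A marker had a symbol only where the study's DEG list held it, so the counts of called markers are raised by that choice. Of all tested genes, 12.1% rose and 12.7% fell with pergolide, 13.5% rose and 15.4% fell with dexfenfluramine, and 1.04% rose with serotonin.

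The 6 cardiomyocyte markers with a symbol, of 8, summed to 105675 CPM ± 39176 (SD, n = 5) in non-treated, 73149.5 CPM ± 22627 in serotonin, 70532.5 CPM ± 20626 in pergolide and 51635 CPM ± 23286 in dexfenfluramine valves, with TTN the most abundant. The summed level ran as low as 12109.7 CPM in dexfenfluramine replicate 3. Without the 2 furthest valves the sum was 120126 CPM ± 25574 (SD, n = 4) in non-treated and 61517 CPM ± 8489 (SD, n = 4) in dexfenfluramine valves. TNNT2 fell with both drugs, with log2 fold changes of -2.27 and -2.79, and did so without any single valve of the groups compared. MYH7 and RYR2, with -1.45 and -1.11, fell with dexfenfluramine. RYR2 did not pass without non-treated replicate 2, 4 or 5 or dexfenfluramine replicate 1, 2, 3 or 4, and neither passed without non-treated replicate 1. In this joint fit, RYR2 also did not pass without serotonin replicate 3 or 5 or pergolide replicate 1, 3 or 4. MYBPC3 fell with dexfenfluramine without its replicate 1. Without dexfenfluramine replicate 3, 3 markers fell with pergolide, MYBPC3, MYH7 and TNNT2. All 6 fell with dexfenfluramine and 2 with pergolide once non-treated replicate 3 was left out, 4 fell with dexfenfluramine without its replicate 5, and without the 2 furthest valves 6 fell with dexfenfluramine, 5 with pergolide and 1 with serotonin.

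Of the valvular interstitial markers, 8 of 10 had a symbol, and 5 rose with pergolide, 5 with dexfenfluramine and 1 with serotonin. The rise with serotonin was lost without non-treated replicate 2, 4 or 5 or serotonin replicate 1, 2 or 4, and without the 2 furthest valves 6, 4 and 2 rose. Of the rises with dexfenfluramine, that of HAPLN1 was lost without non-treated replicate 1 or 4 or dexfenfluramine replicate 3. With pergolide, DCN rose as well without non-treated replicate 3 or pergolide replicate 3. Their sum was 6738 CPM ± 1068 (SD, n = 5) in non-treated, 7773 CPM ± 696 in serotonin, 9152 CPM ± 1394 in pergolide and 9759 CPM ± 1451 in dexfenfluramine valves, with VIM the most abundant. Without the 2 furthest valves it was 6417 CPM ± 913 (SD, n = 4) in non-treated and 9178 CPM ± 743 (SD, n = 4) in dexfenfluramine valves.

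The 3 adipocyte markers with a symbol, of 6, all rose with pergolide, from a sum of 35.8 CPM ± 19.6 to 122 CPM ± 50.4 (SD, n = 5), and ADIPOQ was the most abundant. Of the 3, only CIDEA passed without non-treated replicate 2 or 5 or pergolide replicate 1. Only CIDEA and LEP passed without non-treated replicate 1 or 3, pergolide replicate 2 or 5 or serotonin replicate 4 or 5. With dexfenfluramine and with serotonin 0 of the 3 passed, though CIDEA rose with dexfenfluramine without its replicate 3 and without the 2 furthest valves. Both endothelial markers with a symbol, of 6, fell with pergolide, PECAM1 by 0.74 and EMCN by 0.54 on the log2 scale, and 0 of 2 passed with dexfenfluramine and with serotonin. EMCN did not pass without non-treated replicate 2, 3 or 5, pergolide replicate 2, 3 or 5 or the 2 furthest valves, and PECAM1 fell with dexfenfluramine without non-treated replicate 4. Of 2 smooth muscle markers with a symbol, of 4, MYOCD fell with pergolide and both MYOCD and MYH11 fell with dexfenfluramine. MYOCD did not pass with pergolide without non-treated replicate 1 or 4 or pergolide replicate 1, 4 or 5, and without the 2 furthest valves both fell with pergolide and MYOCD with serotonin. The part of these cell types in the levels of RPL21, RPSA and RPS7 was not tested.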

How the data were processed

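The authors depleted ribosomal RNA, made stranded libraries, aligned reads to the rabbit genome oryCun2 with TopHat2 2.1.1 and counted them per Ensembl gene with HTSeq, and the deposited values are whole-number counts without normalization. The treatment of reads that align to several places is not given in the sources used here. Each of the 20 columns was assigned to a group through the sample labels.

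In edgeR 4.0.16 (R 4.3.3), TMM normalization and filterByExpr by group left 8683 genes, which were tested by quasi-likelihood in 1 fit of the 20 valves. P-values were adjusted by the Benjamini-Hochberg method over all tested genes, with a threshold of 0.05. Standard errors were derived from the log2 fold change and the F statistic. Log2 CPM used a prior count of 2. The test between the drugs had been planned for the 3 loci too and is left out, since both groups entered their selection. Intervals of ratios of counts are exact, at 95%, and cover counting error only. The tests were tried on simulated counts.

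Symbols came from the names in the study's DEG list, which gave 3560 genes a symbol, and its values were not used. List symbols were matched to it without regard to case and hyphens, and RACK1 by its older symbol GNB2L1. The RefSeq gene table held 0 Ensembl identifiers and named none. Genes named are the 3 loci, for each the 5 genes of highest correlation over the valves and the 3 of highest correlation after subtraction of group means, of ribosomal proteins the 4 largest rises and falls among called genes with a mean log2 CPM of at least 1, of the translation and assembly lists the 2 smallest p-values for each drug, RPL11, markers and the most abundant gene of a list. Where these had no symbol, only a few are named, and 1 ribosomal protein locus under this rule is not reported here by name, though it is in the counts and sums. The members and lists were chosen with earlier results of these data known.

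Alternatives were DESeq2 1.42.0, limma-voom (limma 3.58.1) with and without the 4 surrogate variables of svaseq (sva 3.50.0), upper-quartile normalization, the size factors of DESeq2, no filter, only the groups compared, the replicate number as a block, and each valve left out in turn. For a given comparison, the valves left out were those of the groups compared. For the cell markers they were the valves of all groups. The study's own limma-voom fit with svaseq and RUVr factors was not repeated, and its HTSFilter step was not used here. Plots were drawn in Python 3.11.15 with matplotlib 3.10.9.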

Additional observations from a re-analysis of the deposited data

How the results depend on the processing

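Across the alternatives, that without the 2 furthest valves among them, RPL21 ran from -4.65 to -4.08 on the log2 scale with pergolide and from -4.33 to -3.76 with dexfenfluramine, RPSA from 1.47 to 1.69 and from 1.63 to 1.80, and RPS7 from 1.75 to 1.94 and from 1.71 to 2.00. With each valve of the groups compared left out in turn they ran from -4.63 to -3.89 and from -4.16 to -3.61, from 1.44 to 1.58 and from 1.65 to 1.81, and from 1.76 to 2.13 and from 1.79 to 2.16. These are descriptions of the contrasts that chose the loci. No alternative called any of the 3 loci with serotonin, where adjusted p-values ran from 0.221 to 0.972. With serotonin, RPL21 ran from 0.0445 to 0.50 on the log2 scale across the alternatives, RPSA from -0.21 to -0.12 and RPS7 from 0.66 to 0.97. With each valve left out in turn they ran from 0.28 to 0.53, from -0.29 to -0.084 and from 0.66 to 1.04. Below, a locus moved where its log2 fold change shifted by at least 1 SD between valves, and a count where it differed by over 1.5 times.

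For each drug against non-treated valves, the values that moved came with limma-voom and svaseq surrogate variables. With pergolide RPSA was then 1.69 and RPL21, within its wider spread, -4.65, 1155 genes were called, 6 ribosomal protein loci fell and 15 translation and assembly genes were called. With dexfenfluramine RPL21 was -4.33, 984 genes were called, 4 ribosomal protein loci fell and 15 translation and assembly genes were called. Between the drugs RPS7 changed sign to -0.0873, and to -0.04 without non-treated replicate 3 and dexfenfluramine replicate 3, a setting added after the data were seen. With each valve left out in turn, RPS7 ran from -0.0790 to 0.12 and RPL21 from -0.00652 to 0.83 between the drugs, where DESeq2 called 4 genes.

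With serotonin, called genes numbered 53 with DESeq2's size factors, 234 with DESeq2, 48 without a filter, 0 with only the groups compared, 481 without the 2 furthest valves, 37 with library totals without the most abundant gene (added after the data were seen) and 0 to 261 with each valve left out in turn. Ribosomal protein loci that rose numbered 13 with DESeq2 (1 fell), 0 with only the groups compared, 5 without the most abundant gene and 0 to 13 with each valve left out. Translation and assembly genes called numbered 0 with only the groups compared, 5 without the 2 furthest valves and 0 to 4 with each valve left out. The cause was not tested.

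The replicate numbers were not taken to pair the valves, as deviations of same-numbered valves had r over 0.1 in 6 of 30 pairs (median -0.02). These 6 were replicates 3 and 4 of the groups other than pergolide, with 0.49 for replicate 3 of non-treated and dexfenfluramine valves, the 2 furthest valves. With the replicate block, serotonin called 1 gene, 1 ribosomal protein locus rose and 0 translation and assembly genes were called, and the other counts stayed within 1.5 times. With only the groups compared, RPS7 with serotonin and RPL21 between the drugs were removed by the filter and gave no value. Depth limits RPL21 in drug-treated valves and RPS7 in non-treated valves, where few reads stand behind each value.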
